A study of Drosophila melanogaster with 37 samples.

Results

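In Drosophila S2 cells, 6679 of the 40236 merged sites of the GAGA factor (GAF) were called in both of the 2 longest GAF peak lists and in none of the other 6. The 2 long lists came from GAF RNAi replicate 2, with 18267 peaks, and GFP RNAi replicate 1, with 29233 peaks, while the other lists held between 2676 and 4568 peaks. The sites were selected on presence of a GAF peak in each list. Peaks of all 8 GAF lists on the large arms of chromosomes 2 and 3, on chromosome 4 and on X were merged where they shared at least 1 bp, and a merged site was kept if both long lists and no other list contributed a peak. Presence, strength and width in the long lists therefore describe how the sites were chosen by their GAF calls and were not tested. The sites are called long-list-only sites here.

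Chromatin immunoprecipitation with sequencing was done for GAF, CLAMP and MSL3 in S2 cells, an established line of male origin. The cells had received 4.5 ug/mL of double-stranded RNA against GAF (gene trl), against CLAMP or, as the control, against GFP. The 25 peak lists comprised 2 GAF, 2 CLAMP and 3 MSL3 lists under GAF RNAi, 3 GAF, 2 CLAMP and 3 MSL3 lists under CLAMP RNAi, and 3 GAF, 3 CLAMP and 4 MSL3 lists under GFP RNAi. All cells were fixed with 1% formaldehyde. The 12 input libraries have no list and were not used here. Whether libraries with different replicate numbers came from separate cultures is not given, so the tests below measure the spread between libraries. The lists hold no read counts and the depth of each library is unknown. Calls reached down to a −log10 p of about 1.3 in the GAF and CLAMP lists, and to about 1.0 in the MSL3 lists. One of the long lists came from GAF RNAi cells, where the other GAF list had 4220 peaks and the 3 control lists had 29233, 3543 and 2676. List length therefore did not follow the RNAi label. The 2 long lists differ in RNAi and in library at once, and these cannot be told apart in a comparison of the 2.

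GAF recognises GAGA repeats through a zinc finger, sits at many promoters and helps to keep chromatin open there. CLAMP, with several zinc fingers, also recognises GA-rich repeats, and it helps to bring the dosage compensation complex to the single X of male cells. MSL3 is a subunit of that complex, which raises transcription of X-linked genes in males. No genome sequence or annotation of build dm3 was used here, so no bases of the sites are shown and no genes are named.

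Long-list-only sites were weak GAF calls in both lists. Fold enrichment had a median of 2.12 in the GAF RNAi replicate 2 list, with quartiles of 1.74 and 2.58 and a highest value of 5.27. In the GFP RNAi replicate 1 list the median was 1.70, with quartiles of 1.54 and 1.87 and a highest value of 3.35. At the 2260 sites called in both long lists and in at least 1 other list, called shared sites here, the medians were 4.30 in the GAF RNAi list and 6.19 in the GFP RNAi list. Long-list-only sites resembled instead the calls that each long list held by itself. The 8958 sites of the GAF RNAi replicate 2 list alone had a median of 2.22, and the 18447 sites of the GFP RNAi replicate 1 list alone had a median of 1.72. Among sites that the 6 other lists lacked, being called in both long lists thus went with no higher median fold enrichment than being called in 1.

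**Figure D1:**
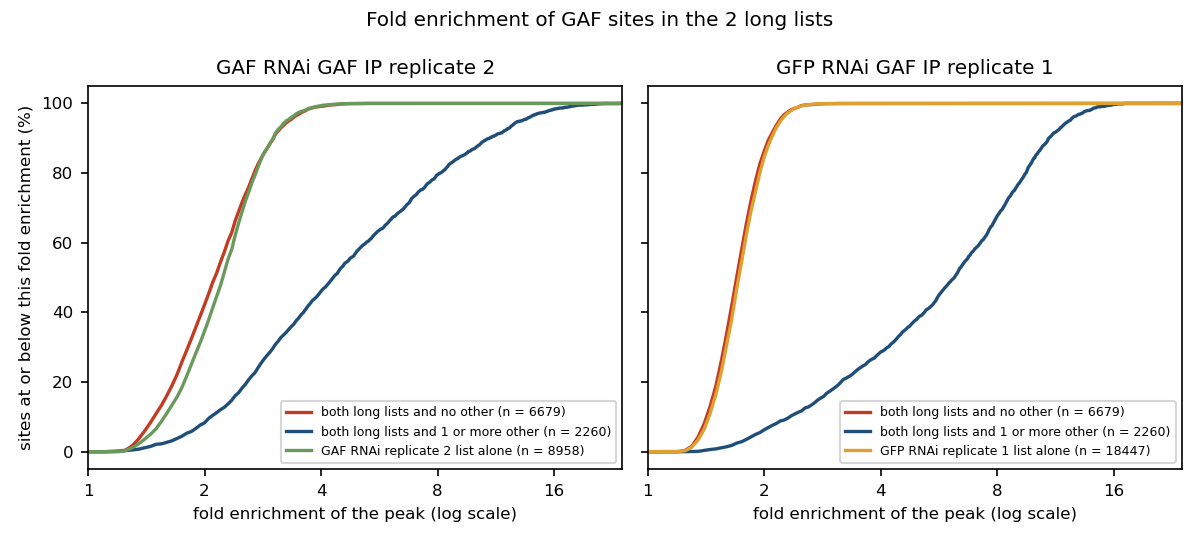
Percentage of GAF sites at or below each fold enrichment (x axis, log scale) in the GAF RNAi replicate 2 list (left) and the GFP RNAi replicate 1 list (right), for each set of sites. The curves of the 6679 long-list-only sites lie beside those of sites called in 1 long list alone, with medians of 2.12 and 1.70, and left of the curves of shared sites, with medians of 4.30 and 6.19.

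Statistical support within the lists followed the same order. The median −log10 q of long-list-only sites was 3.39 in the GAF RNAi list and 2.12 in the GFP RNAi list, against 34.2 and 91.7 at shared sites. A q of 0.05 was met in both lists at 4309 sites, or 64.5%, in 1 list at 2125 sites and in neither at 245. At a −log10 q of 5, only 157 long-list-only sites passed in both lists and 4442 passed in neither. The shortest GAF list held 2676 peaks, and 383 long-list-only sites ranked within the first 2676 peaks of the GAF RNAi list by −log10 q and 17 within those of the GFP RNAi list. Of the shared sites, 1718 and 1964 ranked that high in the same lists. The sites that just missed the rule, with 1 other list, numbered 180, and that list was GFP RNAi replicate 2 at 95 of them, CLAMP RNAi replicate 3 at 43 and GAF RNAi replicate 1 at 34. Their median fold enrichment was 2.30 in the GAF RNAi list and 1.99 in the GFP RNAi list, against 2.12 and 1.70 at long-list-only sites. The value of 1.99 lay above the upper quartile of long-list-only sites, 1.87. Their median −log10 q was 5.44 and 5.02, above the 3.39 and 2.12 of long-list-only sites.

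The strength of a long-list-only site in one list told little of its strength in the other. Across the 6679 sites, Spearman's rho of fold enrichment between the lists was 0.02, against 0.67 across the 2260 shared sites. The narrow range of weak values limits such a rho, and sites of 1 library are not independent replicates. The rule itself requires that peaks of both lists overlap, which bounds the distance between their summits. Summits lay a median of 67 bp apart, with quartiles of 29 and 142 bp, and 63.9% lay within 100 bp of each other. At shared sites the median was 30 bp and 85.2% lay within 100 bp. Fold enrichment was higher in the GAF RNAi list than in the GFP RNAi list at 75.5% of long-list-only sites, against 37.6% of shared sites, although the scale of fold enrichment depends on each library.

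Long-list-only sites were narrower than shared sites and wider than sites of a single long list. Merged width follows partly from the merging, since a site spans the peaks of every list that called it. The merged sites had a median width of 448 bp, with quartiles of 358 and 593 bp and a range of 253 to 3483 bp, against medians of 754 bp at shared sites, 329 bp at sites of the GAF RNAi list alone and 276 bp at sites of the GFP RNAi list alone. The single peaks were 371 bp wide in the GAF RNAi list and 296 bp in the GFP RNAi list by their medians. Those at shared sites were 468 and 566 bp wide, and those of sites in each list alone 329 and 276 bp. Exactly 1 peak of each long list made up 95.6% of the long-list-only sites. In sum they covered 3.42 Mb, or 2.85% of the called span of the 6 arms. They took up 36.8% of the peaks of the GAF RNAi replicate 2 list and 23.8% of those of the GFP RNAi replicate 1 list. Among sites that the 6 other lists lacked, 42.7% of those in the GAF RNAi list and 26.6% of those in the GFP RNAi list were called in both.

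The strongest long-list-only sites by mean rank of fold enrichment in the 2 lists show how far the set reached. The first was 3L:5915353-5915687 (dm3), with a fold enrichment of 4.17 in the GAF RNAi list and 3.35 in the GFP RNAi list. Its summits were 2 bp apart, no CLAMP list overlapped it, and the only MSL3 list at it was GAF RNAi replicate 2. The second, 3L:4406902-4407275, had values of 4.55 and 2.51 in the same order of lists and summits 1 bp apart. Both sites lie near the median of shared sites in the GAF RNAi list, 4.30, and under their lower quartile in the GFP RNAi list, 3.65. The third, 2L:1399498-1399824, had values of 4.48 and 2.48, and 5 of the 7 CLAMP lists overlapped it, all but those of CLAMP RNAi. Of the first 10, 4 lay on 3L, 2 on 2L, 2 on X and 1 each on 2R and 3R, and 3 of the 10 overlapped a CLAMP peak. The narrowest site, 2L:2817530-2817782, was 253 bp wide with values of 1.79 and 1.93. The widest, 3L:3354454-3357936, spanned 3483 bp with values of 1.27 and 1.81.

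Few long-list-only sites lay on the X chromosome. The X held 180 of them, or 2.70% (exact Clopper-Pearson 95% interval 2.32 to 3.11, for counting error only), against 398 shared sites, or 17.6% (16.1 to 19.2). The X makes up 18.6% of the called span, so its share of shared sites was close to its length. Density was 8.04 long-list-only sites per Mb on X and 66.5 per Mb on the autosomes, against 17.8 and 19.1 shared sites per Mb. The X was low also among sites of a single long list, with 7.11% of those in the GAF RNAi list alone and 4.84% of those in the GFP RNAi list alone. Of all merged GAF sites, 6.33% lay on X. The autosomal arms ranged from 61.9 sites per Mb on 3L to 75.9 on 3R, with 62.9 on 2L and 66.7 on 2R. Chromosome 4 held 9 long-list-only sites, or 7.41 per Mb, and 6 shared sites, or 4.94 per Mb. The arms were not tested, since arm position and the calls that chose the sites come from the same 2 libraries.

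**Figure D2:**
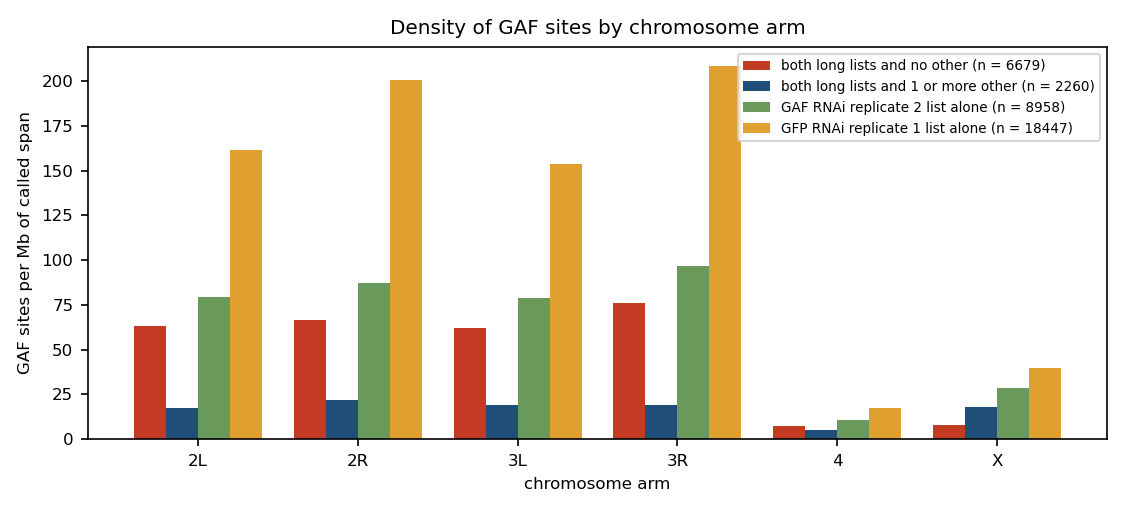
Number of GAF sites per Mb of called span on each chromosome arm, for each set of sites. Long-list-only sites reached 61.9 to 75.9 per Mb on 2L, 2R, 3L and 3R but 8.04 on X, where shared sites had 17.8.

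Density also varied along the arms. In whole bins of 1 Mb, the 4 large autosomal arms held a median of 70.5 long-list-only sites, with a range of 4 to 123, and X held a median of 5.5, with a range of 1 to 36. On 3L the first 7 Mb held 694 sites, or 99.1 per Mb, the following 9 Mb held 32.1 per Mb and the span from 16 to 23 Mb held 74.6 per Mb. Shared sites had 18.6, 18.1 and 24.6 per Mb in the same blocks, so the dip was seen in long-list-only sites and not in shared sites. Sites of a single long list dipped as well, to 62.0 per Mb in the middle block of 3L for the GAF RNAi list alone, against 108 in the first 7 Mb. On 2L the first 2 Mb held 106 long-list-only sites per Mb, the next 6 Mb held 39.7 and the span from 8 to 22 Mb held 69.9. On X, 98 of the 180 sites lay between 1 and 6 Mb, at 19.6 per Mb, and the span from 6 to 22 Mb had 4.75 per Mb. The blocks were drawn after the bins were seen and are a description.

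Long-list-only sites lay farther from shared sites than shared sites lay from each other, as did sites of a single long list. The nearest shared site was a median of 24994 bp away, and 213 long-list-only sites, or 3.19%, lay within 1 kb of one. The medians were 21848 bp for sites of the GAF RNAi list alone and 23880 bp for sites of the GFP RNAi list alone, with 2.81% and 3.23% within 1 kb. Shared sites lay a median of 6469 bp from another shared site. The distance from a long-list-only site to the nearest other one had a median of 3623 bp, and 1334 sites, or 19.97%, had another within 1 kb. This distance falls with the number of sites in a set, and it was 2672 bp among the 8958 sites of the GAF RNAi list alone and 1259 bp among the 18447 sites of the GFP RNAi list alone. The most isolated long-list-only site, 3L:24003594-24004142, lay 64787 bp from any other GAF site, near the end of the called span of 3L. The next most isolated, 3L:24282275-24282621, lay 34766 bp away, and X:6003808-6004157 lay 34431 bp away.

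CLAMP peaks were rare at long-list-only sites. Under GAF RNAi, 1.57% and 3.29% of the sites overlapped a CLAMP peak in replicates 1 and 2, while 7.25% and 8.07% of all merged GAF sites did. Under CLAMP RNAi the percentages were 0.0898 and 0.0299, against 1.34 and 0.753 over all GAF sites. Under GFP RNAi, replicates 1, 2 and 4 overlapped 1.44%, 0.389% and 14.3% of long-list-only sites, against 6.73%, 3.44% and 13.8% of all GAF sites. The replicate 4 list stood apart from the other 6, which all lay under 3.3%. Counting error on these percentages was at most 1.21 points on either side.

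**Figure D3:**
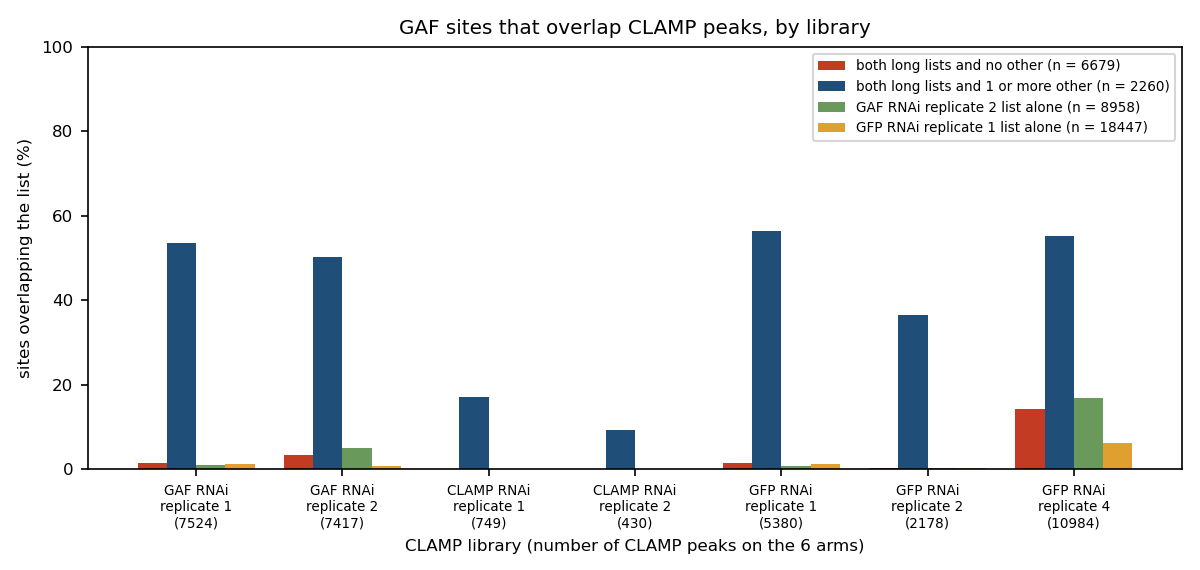
Percentage of GAF sites that overlap a CLAMP peak by at least 1 bp in each of the 7 CLAMP libraries, with the number of CLAMP peaks in brackets. Long-list-only sites stayed between 0.0299% and 3.29% in all libraries but GFP RNAi replicate 4, with 14.3%, while shared sites lay between 9.29% and 56.5%.

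Shared sites overlapped CLAMP peaks far more often, in all 7 libraries. The percentages at shared sites were 53.5 and 50.4 under GAF RNAi, 17.0 and 9.29 under CLAMP RNAi, and 56.5, 36.5 and 55.4 under GFP RNAi. Long-list-only sites averaged 3.01% ± 5.09 and shared sites 39.8% ± 19.5 (SD, n = 7 libraries). The mean difference of −36.8 points was larger than the spread between libraries (exact two-sided sign-flip permutation test over libraries, p = 0.0156, the smallest 7 libraries can give; Benjamini-Hochberg adjusted over 6 such contrasts 0.0391). Without the libraries that share RNAi and replicate number with the long GAF lists, the difference was −31.1 points in the 5 libraries left (exact permutation p = 0.0625, the smallest 5 libraries can give; adjusted 0.117). With regions of a −log10 p of at least 3 the difference was −34.5 points, and with lists of equal length −10.4 points, each lower in 7 of 7 libraries (exact permutation p = 0.0156, adjusted 0.0938). Against sites of a single long list the differences were small. They were −0.46 points from sites of the GAF RNAi list alone (exact permutation p = 0.469, adjusted 0.469) and 1.53 points from sites of the GFP RNAi list alone (exact permutation p = 0.109, adjusted 0.131). Without GFP RNAi replicate 4 these differences were −0.10 and 0.47 points, so that library made up most of both.

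The few CLAMP calls rarely recurred, as at sites of a single long list. At least 1 CLAMP list overlapped 1158 long-list-only sites, or 17.3%, against 20.1% of all GAF sites. At least 2 lists overlapped 141, or 2.11%, against 7.38% of all GAF sites, and at shared sites 57.7% had at least 2. At sites of the GAF RNAi list alone 2.37% had at least 2, and at sites of the GFP RNAi list alone 0.894%. The GFP RNAi replicate 4 list was alone at 838 of the 1158 sites, and without that list 320 sites, or 4.79%, kept a CLAMP call. These counts have no counterpart over all GAF sites here. At long-list-only sites, 1057 peaks of the GFP RNAi replicate 4 list had a median fold enrichment of 1.82, and 8.61% of them met a q of 0.05. At shared sites, 1462 of its peaks had a median of 2.40 and 75.8% met that q. The deepest CLAMP support was at 2R:5464868-5465460 and 3R:4630575-4631326, which all 7 CLAMP lists overlapped, those of CLAMP RNAi included. Their GAF fold enrichment was 1.77 and 2.35 in the GAF RNAi list, and 2.63 and 1.70 in the GFP RNAi list, within the range of the other sites.

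Overlap grows with the width of the sites and of the lists, so GAF summits on the autosomes were also set against the share of autosomal span that each CLAMP list covers. In the 6 CLAMP lists other than GFP RNAi replicate 4, long-list-only summits fell inside CLAMP peaks at between 0.168 and 0.483 times the covered share. In the GFP RNAi replicate 4 list the ratio was 2.60, with 8.86% of summits inside peaks that covered 3.404% of the span. Shared summits had ratios between 12.9 and 76.0 over the 7 lists. Long-list-only summits thus lay in CLAMP peaks less often than the covered share in 6 lists and more often in 1. The same held for sites of a single long list. Over the 6 lists, ratios were 0 to 0.821 for sites of the GAF RNAi list alone and 0.189 to 0.587 for those of the GFP RNAi list alone. In the GFP RNAi replicate 4 list the ratios of these sets were 3.48 and 1.31. These ratios are descriptions with no test.

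MSL3 regions overlapped nearly all long-list-only sites, and nearly all sites of a single long list. At least 1 of the 10 MSL3 lists overlapped 6598 long-list-only sites, or 98.8%, against 93.4% of all GAF sites and 75.3% of shared sites. The share was 96.2% at sites of the GAF RNAi list alone and 95.3% at sites of the GFP RNAi list alone. Long-list-only sites most often had 4 MSL3 lists, at 1803 sites, and shared sites most often had 1, at 684. Most MSL3 lists are long, and their regions are broad and weak. They covered between 0.0574% and 25.04% of the arms, and no list had more than 1.46% of its regions at a q of 0.05. With 180 of the 6679 sites on X, most of these overlaps were autosomal.

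**Figure D4:**
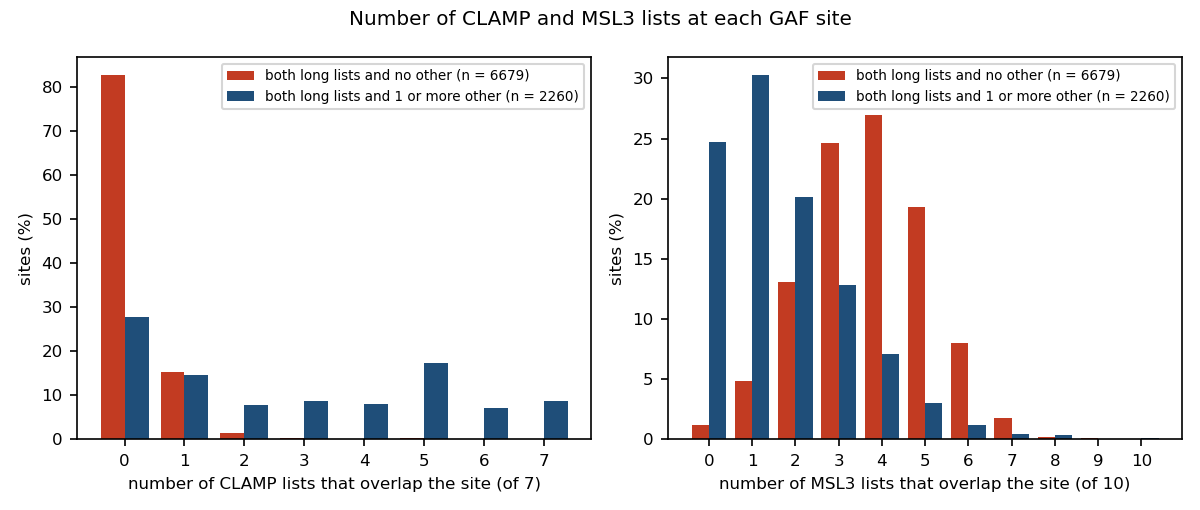
Percentage of long-list-only sites and of shared sites by the number of CLAMP lists (left) and MSL3 lists (right) that overlap them. CLAMP lists are absent from most long-list-only sites, 82.7%, and MSL3 lists most often number 4 there, against 1 at shared sites.

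Under GAF RNAi, MSL3 regions overlapped 70.7%, 80.0% and 78.1% of long-list-only sites in replicates 1 to 3, against 59.8%, 49.5% and 58.0% of all GAF sites. Under CLAMP RNAi the percentages were 2.87, 0.180 and 19.4, against 2.02, 0.201 and 17.8 over all GAF sites. Under GFP RNAi they were 51.4, 33.0, 0.958 and 35.1, against 40.0, 24.1, 1.02 and 30.6. The 3 GAF RNAi libraries lay above all GFP RNAi and CLAMP RNAi libraries. The covered share of the arms did not follow the same order throughout. It was 25.04%, 23.6% and 17.3% under GAF RNAi, 0.697%, 0.0574% and 10.9% under CLAMP RNAi, and 15.7%, 7.41%, 0.481% and 17.5% under GFP RNAi. The GFP RNAi replicate 4 list thus covered slightly more than the GAF RNAi replicate 3 list and overlapped fewer sites.

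**Figure D5:**
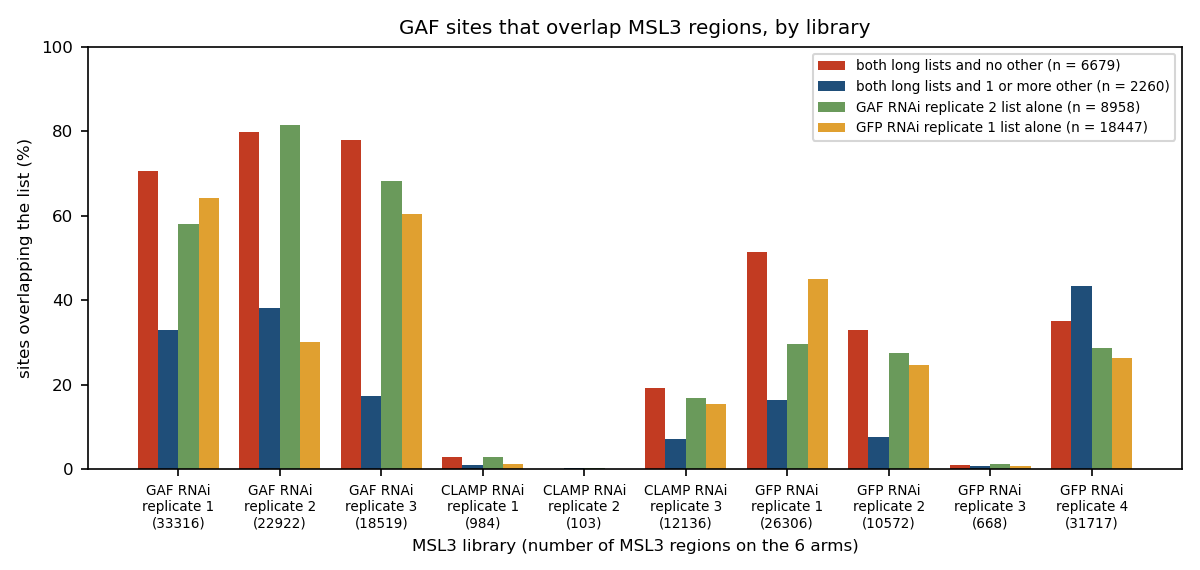
Percentage of GAF sites that overlap an MSL3 region by at least 1 bp in each of the 10 MSL3 libraries, with the number of MSL3 regions in brackets. Long-list-only sites reached 70.7% to 80.0% in the 3 GAF RNAi libraries, 0.180% to 19.4% under CLAMP RNAi and 0.958% to 51.4% under GFP RNAi.

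Between RNAi conditions, no difference in overlap at long-list-only sites passed the test. MSL3 overlap averaged 76.2% ± 4.90 under GAF RNAi and 30.1% ± 21.1 under GFP RNAi (SD, n = 3 and 4 libraries), a difference of 46.1 points without overlap of the groups (exact two-sided permutation p = 0.05714, the smallest 3 against 4 libraries can give; adjusted over 4 comparisons 0.229). At shared sites MSL3 overlap averaged 29.6% ± 10.9 under GAF RNAi and 17.1% ± 18.7 under GFP RNAi. With each list reduced to its 668 strongest regions the difference at long-list-only sites was 1.74 points, with 0.719%, 2.99% and 4.12% of sites under GAF RNAi and 0.823%, 1.12%, 0.958% and 0.584% under GFP RNAi, so that the groups overlapped. With regions of a −log10 p of at least 3 it was 0.99 points. Under CLAMP RNAi MSL3 overlap averaged 7.48% ± 10.4, against 30.1% under GFP RNAi (difference −22.6 points, exact permutation p = 0.171, adjusted 0.267). With regions of a −log10 p of at least 3 this difference was −0.0474 points, and with lists of equal length it turned to 0.0799 points.

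CLAMP overlap at long-list-only sites averaged 2.43% ± 1.22 under GAF RNAi and 5.37% ± 7.73 under GFP RNAi (SD, n = 2 and 3 libraries; difference −2.93 points, exact permutation p = 1, adjusted 1). Without GFP RNAi replicate 4 the difference was 1.52 points, so that library decided the sign. CLAMP overlap averaged 0.0599% ± 0.0423 under CLAMP RNAi, below all 3 GFP RNAi libraries (difference −5.31 points, exact permutation p = 0.2, the smallest 2 against 3 libraries can give, adjusted 0.267). Without GFP RNAi replicate 4 this difference was −0.85 points. These comparisons cannot reach a p of 0.05 at their number of libraries, and their differences move with the lengths of the lists.

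Within libraries, long-list-only sites overlapped MSL3 regions more often on average than each other set of GAF sites, when whole lists were used. The mean difference from shared sites was 20.6 points, with 37.2% ± 31.7 at long-list-only sites and 16.6% ± 16.3 at shared sites, higher in 8 of 10 libraries (SD, n = 10; exact sign-flip permutation p = 0.0195, adjusted over 6 contrasts 0.0391). The exceptions were GFP RNAi replicate 4, with 35.1% against 43.5%, and CLAMP RNAi replicate 2, with 0.180% against 0.221%. The mean difference from sites of the GAF RNAi list alone was 5.60 points, higher in 6 of 10 libraries (exact permutation p = 0.0313, adjusted 0.0469). The mean difference from sites of the GFP RNAi list alone was 10.3 points, higher in 9 of 10 (exact permutation p = 0.00391, adjusted 0.0234).

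These MSL3 differences were found with the weakest regions included. A −log10 p limit of 3 removed most regions at long-list-only sites in every list, since the medians lay between 1.10 and 1.70. The highest values there were 1.82 and 1.46 in CLAMP RNAi replicates 1 and 2. With so few regions left, the filtered lists cannot show whether stronger regions favoured any set. With regions of a −log10 p of at least 3, the mean differences were −0.27 points from shared sites, −0.22 from sites of the GAF RNAi list alone and 0.09 from sites of the GFP RNAi list alone, and none passed the test (adjusted exact permutation p between 0.188 and 0.961). Without the 2 MSL3 libraries that share RNAi and replicate number with the long GAF lists, the differences were 16.2, 4.51 and 5.83 points, all with an adjusted p above 0.05. Single libraries also decided calls or sizes. Without GAF RNAi replicate 2, which had the widest gap, the difference from sites of the GFP RNAi list alone was 5.89 points (adjusted exact permutation p = 0.0469). The call against shared sites was lost without any one of GAF RNAi replicates 1, 2 or 3, CLAMP RNAi replicate 3 or GFP RNAi replicates 1 or 2, with values between 16.2 and 21.6 points. The call against sites of the GAF RNAi list alone was lost without any one of the same 6 libraries or GFP RNAi replicate 4, with values between 3.82 and 6.41 points. At an overlap of 50% of the shorter region the calls against shared sites and against sites of the GAF RNAi list alone were lost (adjusted exact permutation p = 0.0586 and 0.0996). The call against sites of the GAF RNAi list alone was also lost with a window of 100 bp around the summit (adjusted exact permutation p = 0.149) and without X (adjusted exact permutation p = 0.0703).

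The regions at long-list-only sites were about as strong as MSL3 regions elsewhere. In the GAF RNAi lists their median fold enrichment was 1.37, 1.65 and 1.92 in replicates 1 to 3, against 1.37, 1.62 and 1.88 for regions at neither long-list-only nor shared sites. In the GFP RNAi lists it was 1.39, 1.66, 1.56 and 1.85 in replicates 1 to 4, against 1.40, 1.67, 1.66 and 1.85. Of the regions at long-list-only sites, at most 1.49% met a q of 0.05 in any list. They were wider in the GAF RNAi lists, with medians of 940, 1430 and 1112 bp against 590, 714 and 690 bp elsewhere. Regions at shared sites had medians of 669, 924 and 889 bp in the same lists. Regions at long-list-only sites were narrower than elsewhere in GFP RNAi replicate 3 (438 against 534.5 bp) and CLAMP RNAi replicate 2 (286.5 against 405 bp). In the remaining lists they were wider. A wide region overlaps a site more readily.

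Autosomal summits, which have no width, placed long-list-only sites above shared sites in every MSL3 list but GFP RNAi replicate 4. Long-list-only summits fell inside MSL3 regions at between 1.01 and 3.71 times the covered autosomal share, with a median ratio of 2.52 over the 10 lists. Shared summits had a median ratio of 0.740, with a range of 0.270 to 1.47. In GFP RNAi replicate 4 their ratio was 1.33, against 1.01 for long-list-only summits. Sites of the GAF RNAi list alone had a median ratio of 2.72, and sites of the GFP RNAi list alone 1.56. Within lists, the long-list-only ratio was below that of the GAF RNAi list alone in only some. These were GAF RNAi replicate 2 (2.60 against 2.81) and CLAMP RNAi replicates 1 (2.45 against 3.01) and 2 (3.36 against 4.59). In the remaining lists the long-list-only ratio was the higher, so the order of the medians was not that within most lists. High ratios were thus common to long-list-only sites and to sites of the GAF RNAi list alone. The median ratio of shared summits lay below 1, the value that equals the covered share.

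Sites of the 2 single long lists differed in the MSL3 lists that overlapped them. The MSL3 list of GAF RNAi replicate 2 overlapped 80.0% of long-list-only sites and 81.6% of sites of the GAF RNAi replicate 2 list alone, against 30.2% of sites of the GFP RNAi replicate 1 list alone. The MSL3 list of GFP RNAi replicate 1 overlapped 51.4% of long-list-only sites and 45.1% of sites of the GFP RNAi replicate 1 list alone, against 29.8% of sites of the GAF RNAi replicate 2 list alone. The MSL3 lists of GAF RNAi replicates 1 and 3 overlapped sites of the GFP RNAi replicate 1 list alone more often than that same-numbered list did, at 64.4% and 60.5%.

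Combining both factors, 5450 long-list-only sites, or 81.6%, had an MSL3 region and no CLAMP peak in any list, against 75.6% of all GAF sites. Both were present at 1148 sites, or 17.2%, against 17.8% of all GAF sites. Neither was present at 71 sites, or 1.06%, against 4.36%, and a CLAMP peak alone at 10, or 0.150%, against 2.25%. All 3 GAF RNAi MSL3 lists overlapped 3026 sites, or 45.3%, against 19.8% of all GAF sites and 6.33% of shared sites. The same 3 lists overlapped 35.3% of sites of the GAF RNAi list alone and 8.32% of sites of the GFP RNAi list alone. An MSL3 region in at least 1 GAF RNAi list and in no GFP RNAi list was found at 1448 long-list-only sites, or 21.7%, against 26.6% of all GAF sites. The converse was found at 43 long-list-only sites, or 0.644%, against 5.37% of all GAF sites. It was found at 0.681% of sites of the GAF RNAi list alone and 3.64% of sites of the GFP RNAi list alone. The sites with most MSL3 lists had 9 of 10, and they were X:3855415-3857671, 2L:8438808-8439404, 3L:17274611-17275161 and X:13187295-13187950. The last of these also overlapped 6 of the 7 CLAMP lists, with a GAF fold enrichment of 2.00 in the GAF RNAi list and 1.34 in the GFP RNAi list.

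GAF strength within the set went with small differences in the number of MSL3 lists. CLAMP overlap fell with strength in the GFP RNAi list and was raised only in the strongest quartile of the GAF RNAi list. From the weakest to the strongest quartile of fold enrichment in the GAF RNAi list, the mean number of MSL3 lists was 3.52, 3.59, 3.72 and 4.04. Across the same quartiles of the GFP RNAi list it was 3.71, 3.67, 3.76 and 3.73. Spearman's rho with the number of MSL3 lists was 0.14 for the GAF RNAi list and 0.02 for the GFP RNAi list over the 6679 sites, values too weak to read as a relation. A CLAMP peak in at least 1 list was found at 16.05%, 16.2%, 14.8% and 22.3% of sites from the weakest to the strongest quartile of the GAF RNAi list. Across the quartiles of the GFP RNAi list it was found at 23.5%, 19.3%, 14.2% and 12.3%. Most of these sites, 838 of 1158, had a CLAMP peak in the GFP RNAi replicate 4 list alone.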

How the data were processed

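ChIP-seq peak lists of GAF, CLAMP and MSL3 from S2 cells were used as deposited. Per the submitters' processing notes, reads were processed with Bowtie and MACS2 2.1.1 on build dm3. Bowtie's version, the settings of peak calling and its control library are not given in the sources used here. The authors called each library separately. Deposited values are a fold enrichment (a ratio), a −log10 p and a −log10 q per region, and these were used to describe, rank or filter regions within a list. A deposited display score per region was not used. Depth is unknown, and intervals cover counting error only.

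The sites and comparison sets were chosen with earlier results of these data known. Percentages of sites overlapping by at least 1 bp were compared between RNAi groups with exact two-sided permutation tests, and between site sets with exact sign-flip permutation tests over libraries, at a threshold of 0.05 after Benjamini-Hochberg adjustment over 4 and 6 tests. Alternatives were a 50% overlap, a window of 100 bp on each side of the summit, limits on p and q, equal-length lists, all dm3 sequences, a replicate block and omission of single libraries. Sites were named by rule: the first 10 by mean rank of fold enrichment, the 5 with most CLAMP lists, the 5 with most MSL3 lists, the 3 most isolated, the widest and the narrowest. Coordinates are 1-based. Python 3.11.15, numpy 2.4.6, scipy 1.17.1 and matplotlib 3.10.9 were used, and overlap counting was tested on simulated data.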

Additional observations from a re-analysis of the deposited data

Results flagged for a closer look

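The 4 GFP RNAi MSL3 libraries were examined for a value far from the others at 4 sets of GAF sites, and 1 set had one. The GFP RNAi replicate 3 MSL3 list overlapped 1.27% of the sites of the GAF RNAi replicate 2 list alone, far below the other 3 GFP RNAi libraries, and chance gives such a gap in about 1 in 20 independent groups. The 4 sets share the same 4 libraries and are not independent. That list has 668 regions, the fewest of the GFP RNAi MSL3 lists.

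Outside the 6 arms, 38 of 360 merged GAF sites met the same rule, in sequence that no comparison used. They lay mostly on 3LHet, with 13, on 3RHet, with 11, and on the unplaced sequence U, with 10. An MSL3 region overlapped all 38, against 94.2% of the 360 sites, and a CLAMP peak overlapped 2, against 38.6% of the 360.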

How the results depend on the processing

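Over the 6 contrasts of site sets, 68 of 99 alternatives kept direction and side of the threshold. For CLAMP against shared sites, 12 of 15 did. The CLAMP contrasts with sites of the GAF RNAi and GFP RNAi lists alone, which had not passed the test, kept 15 and 13 of 15. For MSL3, 8 of 18 did so against shared sites and 15 of 18 against sites of the GFP RNAi list alone. Against sites of the GAF RNAi list alone only 5 of 18 did. The RNAi differences could not pass the threshold, so their alternatives say nothing of stability. The number of long-list-only sites was 4434 with GAF peaks of a −log10 q of at least 1.3 and 290 at 5, and 6679 to 6774 when any other GAF library was left out.

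With regions of a −log10 p of at least 3, long-list-only sites minus shared sites was −34.5 points for CLAMP, and the MSL3 differences were −0.27 from shared sites, −0.22 from sites of the GAF RNAi list alone and 0.0947 from sites of the GFP RNAi list alone. With lists of equal length the same 4 were −10.4, −0.29, −0.10 and −0.0424, the CLAMP difference from sites of the GFP RNAi list alone was −0.0110, and the RNAi differences were 0.00250 (CLAMP, GAF RNAi minus GFP RNAi) and 0.0799 (MSL3, CLAMP RNAi minus GFP RNAi). The CLAMP contrasts keep a smallest p of 0.0156, so their adjusted p of 0.0938 came from the other contrasts of the family. With a 50% overlap the MSL3 differences were 19.1 from shared sites and 4.49 from sites of the GAF RNAi list alone, and with the summit window the last was 3.91, none of which passed the test. With GAF peaks of a −log10 q of at least 1.3, the CLAMP difference from sites of the GFP RNAi list alone was 1.92 and passed (adjusted p 0.0375).

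Chosen after seeing the data, leaving out X gave 5.24 for MSL3 against sites of the GAF RNAi list alone, which no longer passed, and the CLAMP RNAi minus GFP RNAi difference in CLAMP overlap, net of shared sites, was 30.99. Without libraries of the long lists' RNAi and number, the differences from shared sites were −31.1 (CLAMP) and 16.2 (MSL3), and those from sites of the GAF RNAi and GFP RNAi lists alone were 4.51 and 5.83 (MSL3).

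Leaving out each library gave −41.4 to −33.7 (CLAMP) and 16.2 to 23.8 (MSL3) against shared sites, 3.82 to 6.41 (MSL3) against sites of the GAF RNAi list alone, 5.89 to 11.4 (MSL3) against sites of the GFP RNAi list alone, and −5.42 to 1.52 for CLAMP, GAF RNAi minus GFP RNAi. With the replicate number as a block, the GAF RNAi minus GFP RNAi differences were 1.52 (CLAMP) and 47.8 (MSL3), and the CLAMP RNAi ones −0.85 and −21.0. Same-numbered MSL3 libraries did not deviate together (correlations −0.341 to 0.089), so the numbers were not taken as pairs. Without either long list the rule could not be applied.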
